A study of Mus musculus with 20 samples.

Results

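The genes described here are 9 markers of lipid-associated macrophages, chosen by symbol: Trem2, Gpnmb, Cd9, Cd63, Cd68, Spp1, Lgals3, Itgax and Lyz2. All 9 were among the 20914 genes of the deposited tables, and all 9 passed the filter on low counts that left 13670 genes for testing. RNA was measured in tissue of the left lateral lobe of the liver, holding all its cell types, from male mice of strain LiB12cKO aged 8 weeks. The 10 knockout mice (KO, HSD17B12lox/lox;Alb-CreCre/WT) and the 10 wild-type mice (WT, HSD17B12lox/lox;Alb-CreWT/WT) all carried the floxed Hsd17b12 gene on both alleles, and the KO mice also carried Cre recombinase driven by the albumin promoter. That promoter is active in hepatocytes, so the deletion was directed at hepatocytes and not at the macrophages in which these markers are best known. No WT mouse carried Cre, and an effect of Cre cannot be told apart from an effect of the deletion. Each library had between 16693195 and 29124124 fragments assigned to genes. Fragments that mapped to several places made up 2.1 to 4.05% of 9 KO libraries and 8.51% of KO_391. In WT they made up 5.81 to 14.2% of 8 libraries and 5.09 and 3.4% of WT_415 and WT_441. KO_391, WT_415 and WT_441 thus lay closer to the other genotype in this measure than other libraries of their own genotype did. WT_429, at 5.81%, was close to WT_415, and the next WT library, WT_427, was at 9.45%. The targeted gene, Hsd17b12, an enzyme of very-long-chain fatty acid elongation, had 47.8 ± 2.39 CPM in KO and 152 ± 18.5 CPM in WT (mean ± SD of 10 mice each), with every KO mouse below every WT mouse, as was so for 6.47% of tested genes. CPM is the count of fragments scaled to a common library total, here with TMM factors, which correct for differences in RNA composition between libraries.

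Lipid-associated macrophages are macrophages that take up and digest lipid, described in fat tissue and in fatty liver. TREM2, a surface receptor that binds lipids and lipoproteins, signals through the adaptor TYROBP (DAP12) and is needed for the full programme. The programme combines surface proteins (Trem2, Itgax, Cd9), proteins of lysosomes and endosomes (Gpnmb, Cd68, Cd63) and secreted proteins (Spp1, Lgals3, Lyz2). None of the 9 is restricted to these cells. Resident macrophages of the liver, the Kupffer cells, also express Cd68 and Lyz2, dendritic cells express Itgax, bile duct cells express Spp1, and the tetraspanins Cd9 and Cd63 are found in many cell types.

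All 9 genes were higher in KO than in WT. Each passed an adjusted p of 0.05 in edgeR's quasi-likelihood test, and each rose by more than 2-fold. In the same test 28.2% of all tested genes were higher in KO and 31.0% were lower, and 7.69% were higher by at least 2-fold. The median log2 fold change was 1.79 over the 9 genes and -0.025 over all tested genes. The largest rises were those of Gpnmb, Cd63 and Lgals3, with log2 fold changes of 4.47, 3.88 and 3.10, and the smallest were those of Spp1 and Lyz2, both with 1.30. For 6 of the 9 genes, Gpnmb, Cd9, Cd63, Cd68, Lgals3 and Lyz2, every KO mouse lay above every WT mouse, which held for 7.10% of all tested genes. In bulk tissue a larger number of cells of a type cannot be told apart from more RNA per cell.

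**Figure D1:**
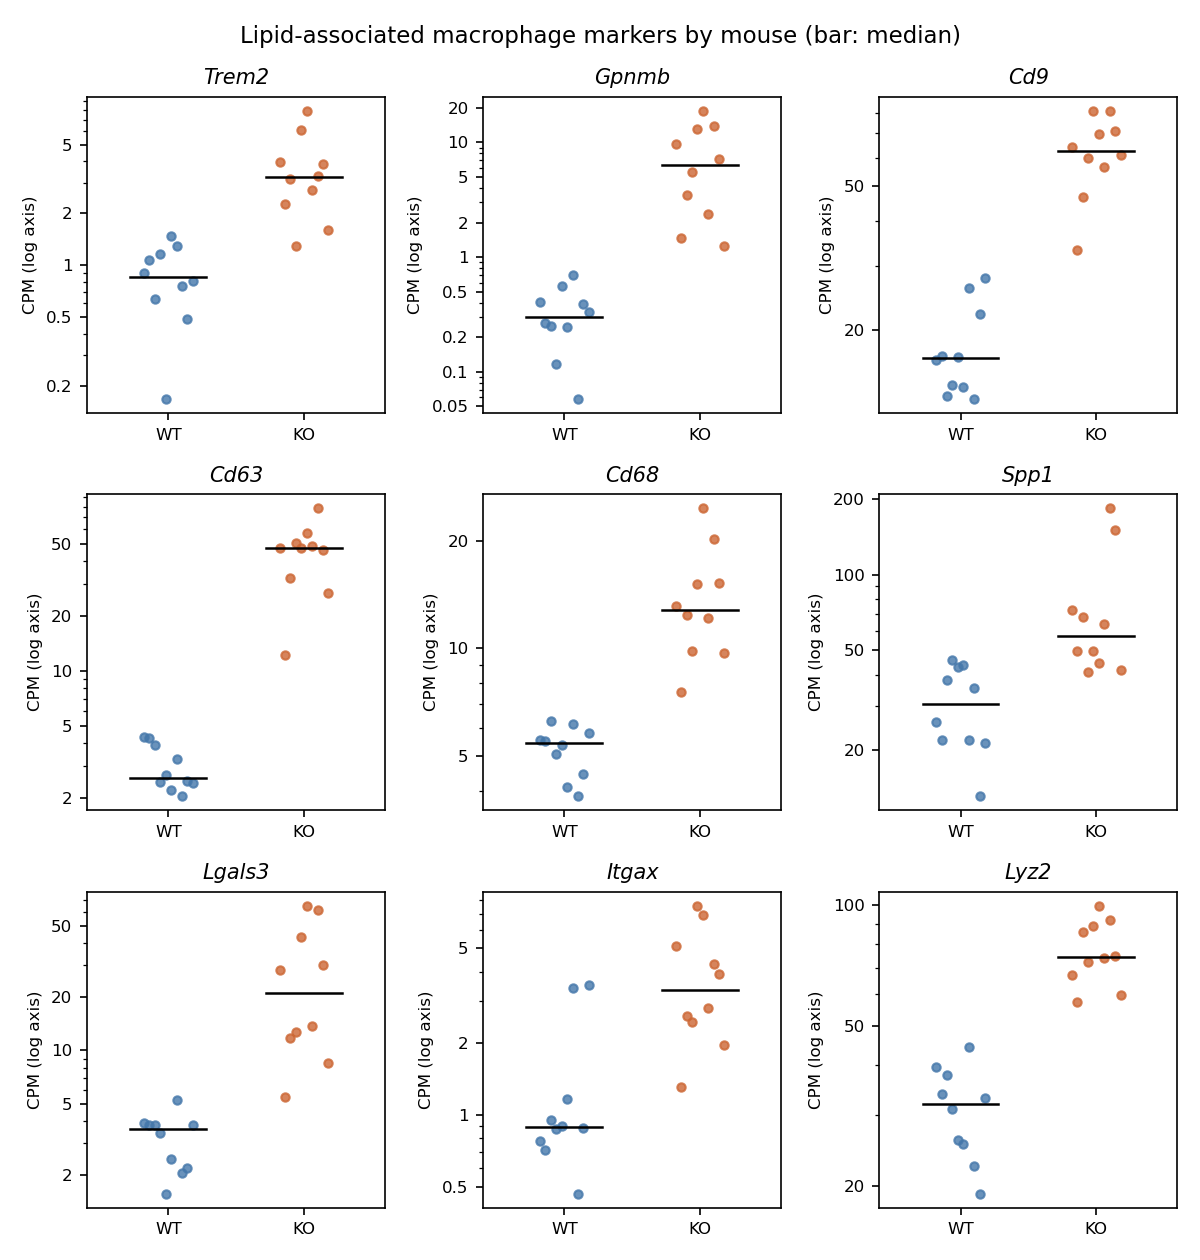
Level of each of the 9 genes in CPM on a log axis, with 1 point per mouse (10 WT, 10 KO) and a bar at the median. The genotypes are separate for Gpnmb, Cd9, Cd63, Cd68, Lgals3 and Lyz2 and overlap for Trem2, Spp1 and Itgax.

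The stretch before the start site is shown for Trem2, Itgax, Cd68 and Spp1, because these 4 hold the matches to motifs that were searched in all 9 genes. The sequences are the 250 bases before the RefSeq start site in GRCm38.p6, written 5′ to 3′ on the strand of the gene, with motif matches in capitals.
Trem2, chr17:48346151-48346400, plus strand: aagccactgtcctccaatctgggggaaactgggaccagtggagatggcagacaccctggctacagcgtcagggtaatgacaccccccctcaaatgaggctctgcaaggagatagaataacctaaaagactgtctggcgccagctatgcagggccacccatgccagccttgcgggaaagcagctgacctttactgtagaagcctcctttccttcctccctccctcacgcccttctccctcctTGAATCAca
Itgax, chr7:128129300-128129549, plus strand: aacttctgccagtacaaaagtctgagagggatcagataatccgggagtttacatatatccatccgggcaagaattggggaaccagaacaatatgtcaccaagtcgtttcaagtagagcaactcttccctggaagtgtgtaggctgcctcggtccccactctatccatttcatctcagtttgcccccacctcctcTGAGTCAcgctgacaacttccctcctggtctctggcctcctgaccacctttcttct
Cd68, chr11:69666171-69666420, minus strand: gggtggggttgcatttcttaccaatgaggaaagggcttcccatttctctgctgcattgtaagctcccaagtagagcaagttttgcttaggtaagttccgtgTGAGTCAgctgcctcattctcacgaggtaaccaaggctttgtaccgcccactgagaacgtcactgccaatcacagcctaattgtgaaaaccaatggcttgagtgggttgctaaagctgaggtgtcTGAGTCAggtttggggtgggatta
Spp1, chr5:104434861-104435110, plus strand: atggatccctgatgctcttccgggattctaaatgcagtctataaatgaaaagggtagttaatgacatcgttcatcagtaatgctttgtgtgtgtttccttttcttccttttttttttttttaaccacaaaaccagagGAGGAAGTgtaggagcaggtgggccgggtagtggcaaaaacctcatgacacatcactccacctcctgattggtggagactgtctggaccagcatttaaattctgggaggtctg
The motifs were searched on both strands: TGANTCA for AP-1, GAGGAAGT for the myeloid factor PU.1 and CACGTG for the E-box bound by factors of lysosome biogenesis. RefSeq gave 10 windows for the 9 genes, with 2 for Spp1. AP-1 matches were in 3 of the 10 windows (30.0%) and in 6.75% of the 32851 windows of that length for all genes. Any base was allowed at N, and the Trem2 match read TGAATCA while those of Itgax and Cd68 read TGAGTCA. The Trem2 match began 9 bases before the start site, that of Itgax 56 bases before it, and those of Cd68 149 and 24 bases before it. The PU.1 match began 113 bases before the first Spp1 start site. PU.1 matches were in 1 of 10 windows and in 2.44% of all, and E-box matches were in 0 of 10 and in 6.02% of all. The Cd68 start site lies 108 bases before the start of the gene in the deposited annotation, and that of Itgax 18 bases before it. Gpnmb, Cd63 and Lgals3, the genes that rose most, held no match. The Cd63 start site, however, lies 426 bases after the start of the gene in the deposited annotation. Its window thus lies inside that gene, and the stretch before the deposited start was not searched. A match shows only that these letters are present.

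Among the receptors, Trem2 (Entrez ID 83433, 5 exon blocks between 48346401 and 48352273 of mm10 chromosome 17) was a low-abundance transcript in both genotypes. Its level ranged from 1.30 to 7.87 CPM in KO with a median of 3.23 CPM, and from 0.168 to 1.47 CPM in WT with a median of 0.854 CPM. Of the KO mice 9 of 10 lay above the highest WT mouse, and only KO_404, at 1.30 CPM, fell within the WT range. Its log2 fold change of 2.04 (SE 0.33, adjusted p = 1.53e-05) is 4.11-fold. These values rest on 39 to 202 fragments per KO library and 3 to 28 per WT library.

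Itgax (Entrez ID 16411, 30 exon blocks between 128129568 and 128150657 of mm10 chromosome 7) encodes CD11c, the alpha subunit of a leukocyte integrin. It ranged from 1.31 to 7.55 CPM in KO (median 3.36 CPM) and from 0.468 to 3.51 CPM in WT (median 0.887 CPM). The WT range was set by mice WT_415 and WT_441, at 3.41 and 3.51 CPM, while the next WT mouse was at 1.16 CPM. These are the WT libraries with the fewest multi-mapping fragments and the highest TMM factors (0.931 and 0.974, against 0.787 to 0.869 in the other WT libraries), and the part of this in their Itgax levels was not tested. WT_429, the next WT library in both measures (5.81% and 0.869), had 0.878 CPM of Itgax. With WT_415 and WT_441 included, 5 of 10 KO mice lay above the highest WT mouse. Itgax had a log2 fold change of 1.495 (SE 0.38, adjusted p = 0.00201), and 2.21 without those 2 WT mice (adjusted p = 6.15e-06). Cd9 was also highest among WT mice in WT_441 and WT_415, at 27.8 and 26.1 CPM.

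Cd9 (Entrez ID 12527, 8 exon blocks between 125460266 and 125494755 of mm10 chromosome 6), a tetraspanin that organises other proteins in the surface membrane, was abundant in both genotypes. It ranged from 33.3 to 80.9 CPM in KO (median 62.7 CPM) and from 12.9 to 27.8 CPM in WT (median 16.6 CPM). The lowest KO mouse, KO_391, was the nearest to the WT mice. Cd9 had a log2 fold change of 1.79 (SE 0.17, adjusted p = 1.94e-08).

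Of the genes for lysosomal and endosomal proteins, Gpnmb (Entrez ID 93695, 11 exon blocks between 49036518 and 49058182 of mm10 chromosome 6) had the largest fold change of the 9. It encodes a transmembrane glycoprotein that accumulates in lipid-laden phagocytes. Its level ranged from 1.26 to 18.8 CPM in KO with a median of 6.34 CPM, and from 0.0585 to 0.691 CPM in WT with a median of 0.300 CPM. The KO mice differed from each other by more than 10 times, with KO_416 and KO_434 at 18.8 and 13.9 CPM and KO_391 and KO_453 at 1.47 and 1.26 CPM. Gpnmb had a log2 fold change of 4.47 (SE 0.54, adjusted p = 6.42e-07), or 22.1-fold, against a WT level of only 1 to 15 fragments per library.

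Cd63 (Entrez ID 12512, 9 exon blocks between 128908919 and 128912822 of mm10 chromosome 10), the tetraspanin of late endosomes, lysosomes and exosomes, was the gene of the 9 with the smallest p, at rank 132 of 13670 genes. It ranged from 12.2 to 78.2 CPM in KO (median 47.3 CPM) and from 2.05 to 4.34 CPM in WT (median 2.59 CPM). Even the lowest KO mouse, KO_391, was well above the highest WT mouse, WT_389. Cd63 had a log2 fold change of 3.88 (SE 0.26, adjusted p = 3.33e-10), or 14.7-fold.

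Cd68 (Entrez ID 12514, 6 exon blocks between 69664371 and 69666062 of mm10 chromosome 11), a lysosomal glycoprotein used as a general macrophage marker, rose less. It ranged from 7.55 to 24.7 CPM in KO (median 12.8 CPM) and from 3.86 to 6.27 CPM in WT (median 5.44 CPM). The log2 fold change was 1.43 (SE 0.17, adjusted p = 4.62e-07). The 2 genotypes did not overlap, but KO_391 at 7.55 CPM was close to the WT range.

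Among the secreted proteins, Lgals3 (Entrez ID 16854, 6 exon blocks between 47373860 and 47386167 of mm10 chromosome 14) encodes galectin-3, a lectin that binds galactosides. It ranged from 5.44 to 64.8 CPM in KO (median 21.0 CPM) and from 1.57 to 5.25 CPM in WT (median 3.62 CPM). KO_416 and KO_434 were highest, at 64.8 and 61.6 CPM, and KO_391 was only just above the highest WT mouse, WT_415. For Lgals3 the log2 fold change was 3.10 (SE 0.44, adjusted p = 6.70e-06).

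Spp1 (Entrez ID 20750, 8 exon blocks between 104435111 and 104441053 of mm10 chromosome 5) encodes osteopontin, a secreted phosphoprotein that binds integrins and CD44. It ranged from 41.0 to 184 CPM in KO (median 56.8 CPM) and from 13.2 to 45.8 CPM in WT (median 30.7 CPM). KO_434 and KO_435 stood above the rest at 184 and 151 CPM, while the other KO mice reached at most 72.7 CPM. Mice KO_404, KO_453 and KO_416 lay within the WT range. For Spp1 the log2 fold change was 1.30 (SE 0.31, adjusted p = 0.00131), and 0.82 without KO_434 and KO_435 (adjusted p = 0.00323).

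Lyz2 (Entrez ID 17105, 4 exon blocks between 117277541 and 117282272 of mm10 chromosome 10), the lysozyme of macrophages and other myeloid cells, was the most abundant of the 9 per length in both genotypes. It ranged from 57.4 to 99.7 CPM in KO (median 74.2 CPM) and from 19.1 to 44.3 CPM in WT (median 32.0 CPM), with no overlap. For Lyz2 the log2 fold change was 1.30 (SE 0.14, adjusted p = 8.05e-08). Its neighbour and close copy Lyz1 had 1.25 ± 0.32 CPM in KO and 0.566 ± 0.29 CPM in WT (10 mice each). Fragments that fit both copies may have been assigned to either, so both values are uncertain to that extent.

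Per kilobase of gene length (RPKM, as deposited) the order of the genes was not the same in both genotypes. In WT the mean level fell from Lyz2 (29.5 ± 7.49 RPKM) through Spp1 (18.7 ± 6.90), Cd9 (15.1 ± 4.52), Cd68 (5.15 ± 0.80), Cd63 (2.90 ± 0.84), Lgals3 (2.29 ± 0.80) and Trem2 (0.803 ± 0.36) to Itgax (0.338 ± 0.28) and Gpnmb (0.0873 ± 0.050; SD, n = 10 each). In KO it fell from Lyz2 (72.9 ± 13.1 RPKM) through Cd9 (52.3 ± 12.2), Spp1 (46.2 ± 29.9), Cd63 (43.1 ± 17.2), Lgals3 (19.9 ± 15.5), Cd68 (13.9 ± 5.07) and Trem2 (3.32 ± 1.84) to Gpnmb (2.01 ± 1.57) and Itgax (0.965 ± 0.52). Cd63 and Lgals3, which lay below Cd68 in WT, had higher means than Cd68 in KO, and Gpnmb, the lowest in WT, had a higher mean than Itgax. Neighbours whose ranges did not overlap were Cd9 and Cd68 in WT and Cd68 and Trem2 in KO, and the ranges of the other neighbours overlapped. Lgals3 exceeded Cd68 in only 5 of 10 KO mice, and Spp1 exceeded Cd63 in only 4 of 10, so the order within these pairs is not resolved.

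The direction of each difference did not depend on the scaling. The TMM factor had a mean of 1.18 ± 0.058 over KO libraries and 0.851 ± 0.060 over WT libraries (SD), so the 2 scalings shift all genes against each other. With library size alone the median of all tested genes moved to 0.44, that of the 9 genes moved to 2.25, and all 9 again passed the threshold, beside 68.4% of all tested genes called higher and 6.71% called lower. The log2 fold changes then lay between 1.77 for Lyz2 and 4.96 for Gpnmb. In the authors' deposited table of the ROTS test all 9 genes also had positive log2 fold changes, from 1.05 for Itgax to 3.41 for Cd63. The value for Gpnmb in the authors' deposited table was 2.35, below the 4.47 of the count fit. On the deposited RPKM the fold of this low gene depended on the pseudocount, with a log2 fold change in limma of 3.10 for a pseudocount of 0.1 and 1.29 for a pseudocount of 1 (adjusted p = 8.13e-07 and 5.17e-05). In the authors' deposited table the largest FDR among the 9 was 7.33e-04, for Itgax.

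**Figure D2:**
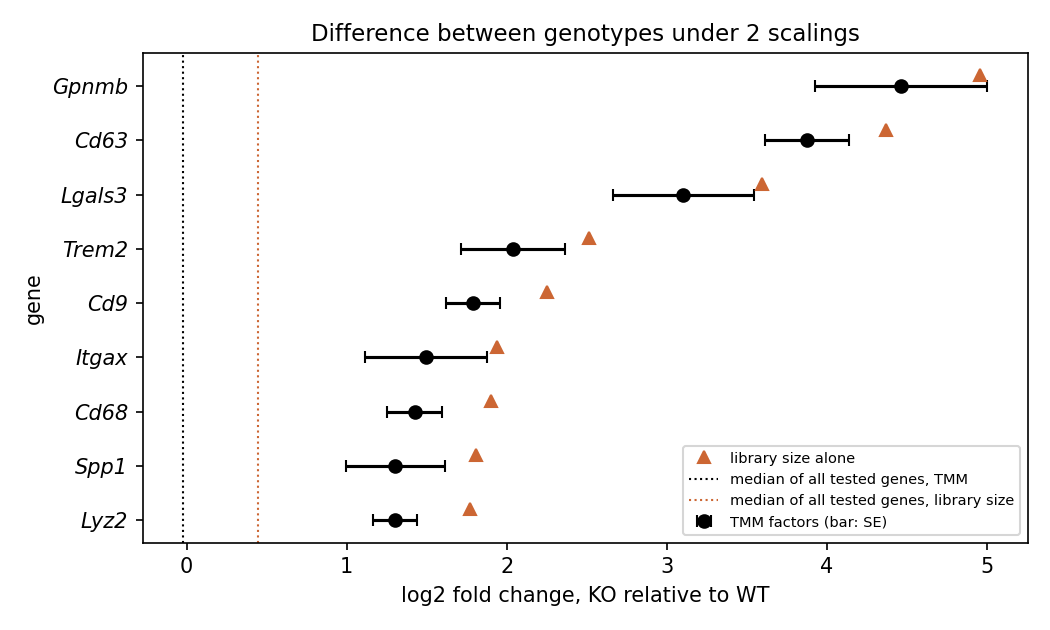
Difference between KO and WT for each gene as log2 fold change, shown as a black point with its SE for TMM scaling and as an orange triangle for library size alone, with dotted lines at the median of all tested genes under each scaling. All 9 genes lie to the right of both lines, from 1.30 (Lyz2) to 4.47 (Gpnmb) with TMM.

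Each gene was next set against genes shared by all macrophages. For each mouse the mean log2 CPM of 18 pan-macrophage genes, none of them among the 9, was subtracted from the log2 CPM of the gene, a ratio that does not depend on the scaling of the library. The mean of the 18 was itself 0.78 higher in KO than in WT (3.85 ± 0.26 against 3.07 ± 0.31 log2 CPM, SD over 10 mice). Relative to it, 8 of the 9 genes were higher in KO (two-sided permutation test over mice, 100000 resamples, 1 test per gene with p not adjusted over the 9). The same 8 passed in limma on the ratios of all tested genes, with p adjusted over all of them, where 5.38% of all tested genes were higher in KO and the median difference of all genes was -0.79. The difference in log2 ratio was 3.07 for Gpnmb (permutation p = 3e-05), 2.98 for Cd63 (3e-05) and 1.95 for Lgals3 (4e-05). It was 1.13 for Trem2 (permutation p = 0.00111), 1.02 for Cd9 (7e-05), 0.57 for Cd68 (1.6e-04) and 0.55 for Lyz2 (3e-05). The ratios of Gpnmb, Cd63 and Lyz2 were higher in every KO mouse than in any WT mouse, as was so for 1.15% of all tested genes, while 4 of 10 KO mice exceeded the highest WT ratio of Trem2.

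For Itgax the difference in log2 ratio was 0.78 (permutation p = 0.0230), with 3 of 10 KO mice above the highest WT mouse. For Spp1 it was 0.42 (SE 0.32, permutation p = 0.208), and the KO and WT ratios overlapped broadly. The reference made a difference. Against Adgre1 alone, the gene of the macrophage marker F4/80, which itself had a log2 fold change of 1.22, Gpnmb, Cd63 and Lgals3 were still higher by 2.58, 2.49 and 1.46 (permutation p = 9e-05, 3e-05 and 7.6e-04). Trem2 and Cd9 were higher than Adgre1 by 0.63 and 0.53 (permutation p = 0.0275 and 0.0311). The other 4 genes missed the threshold against Adgre1, with differences of 0.29 for Itgax, 0.081 for Cd68, 0.055 for Lyz2 and -0.074 for Spp1 (permutation p between 0.371 and 0.842).

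**Figure D3:**
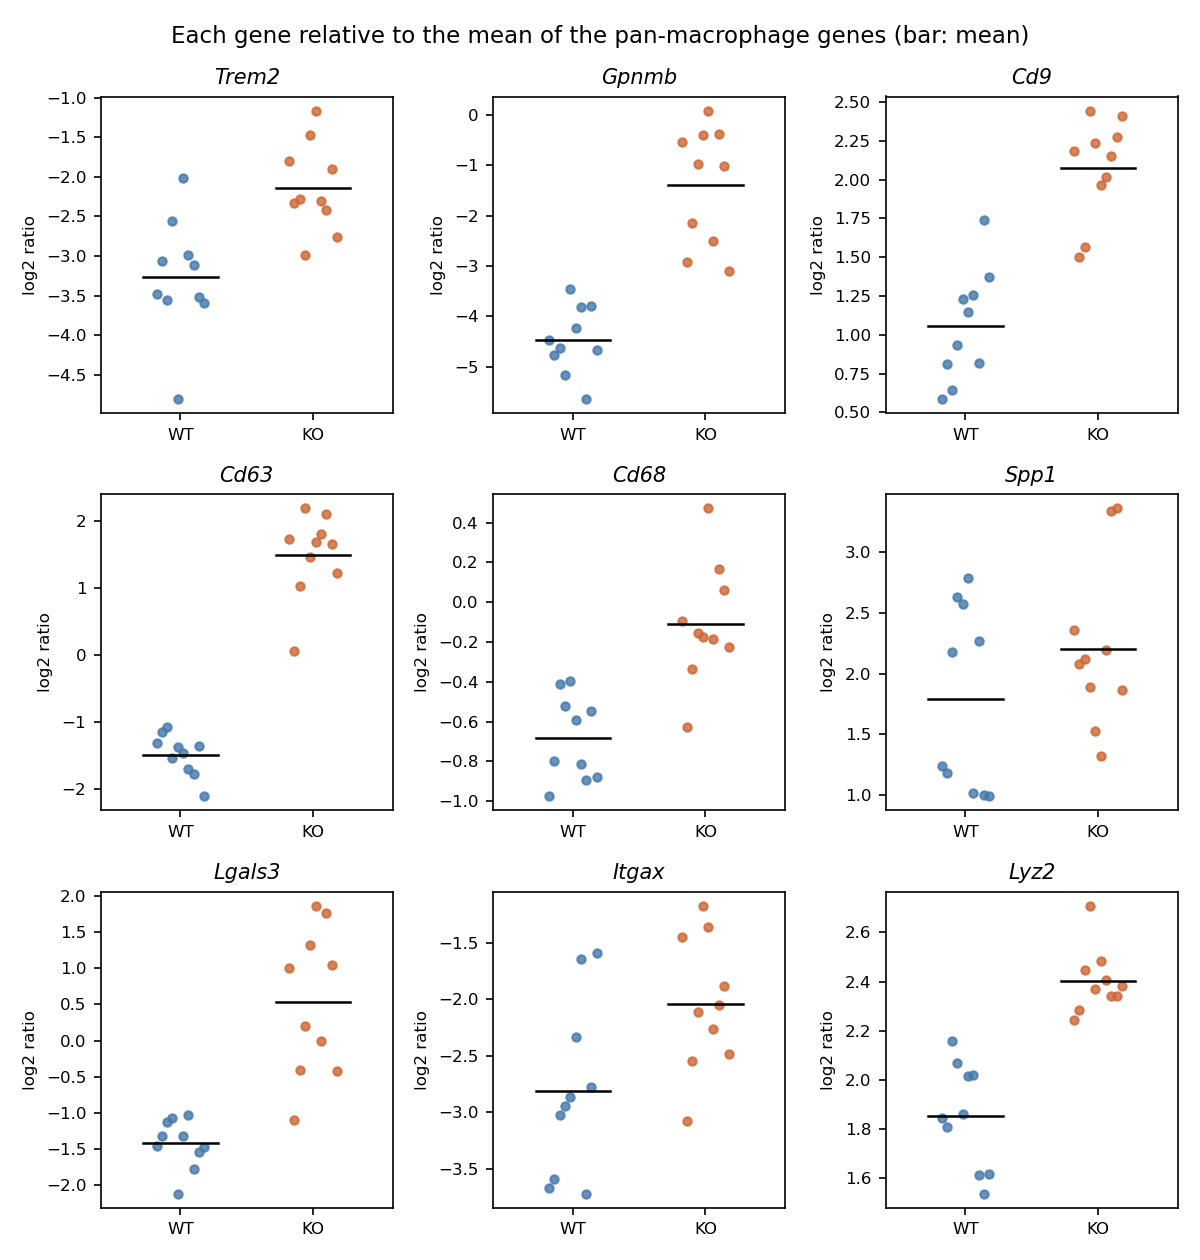
Log2 ratio of each gene to the mean of 18 pan-macrophage genes, with 1 point per mouse (10 WT, 10 KO), a bar at the mean and a separate vertical scale for each gene. The genotypes are separate for Gpnmb, Cd63 and Lyz2, and Spp1 has the broadest overlap.

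The KO mice varied in level, and most of the 9 genes varied together. Mouse KO_416 had the highest value in 5 of the 9 genes, and mouse KO_391 had the lowest in 6 of 9. KO_391 is the KO library with the most multi-mapping fragments and the lowest TMM factor (1.05, against 1.12 to 1.24 in the other KO libraries). Without it the log2 fold changes lay between 1.36 for Lyz2 and 4.61 for Gpnmb. The coefficient of variation among KO mice was 78.5% for Gpnmb, 78.2% for Lgals3, 64.9% for Spp1, 56.0% for Trem2 and 53.7% for Itgax. It was lower for Cd63 (40.1%), Cd68 (36.8%), Cd9 (23.6%) and Lyz2 (18.2%). Among WT mice, WT_427 had the lowest value in 5 of 9 genes and WT_415 the highest in 3.

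Within KO all 36 pairs of the 9 genes had a positive Pearson's r of log2 CPM, with a median of 0.762. Over all pairs of tested genes 49.8% had a positive r within KO and the median was -0.001. Without KO_391 the 36 pairs of the 9 genes were again all positive, with a median r of 0.688. Of the 36 over all 10 mice, 24 passed an adjusted p of 0.05 for r and 17 for both r and Spearman's rho (permutation tests, two-sided, 100000 resamples each, Benjamini-Hochberg over 72 relations). The lowest r that passed was 0.724, a value reached or exceeded by 2.4% of all pairs of tested genes. The closest pairs were Cd68 and Lgals3 (r = 0.948, rho = 0.952, adjusted permutation p = 0.00288 and 0.00936) and Gpnmb and Lgals3 (r = 0.946, rho = 0.939, adjusted permutation p = 0.00288 and 0.00936). Without the 2 mice farthest from the median of the first gene r was 0.924 and 0.921. For Trem2 and Itgax r was 0.838 and rho 0.915 (adjusted permutation p = 0.0162 and 0.0104; r = 0.884 without 2 mice). For Cd9 and Cd63, r of 0.867 came with rho of 0.515 (adjusted permutation p = 0.0162 and 0.260) and fell to 0.5 without 2 mice, so that relation rests on those mice.

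Spp1 was the exception in KO. Its r with the other 8 genes lay between 0.192 and 0.446, and none of these relations passed the threshold (adjusted permutation p of 0.342 or more). Its r with Cd68 was 0.424 over all 10 KO mice and 0.842 without the 2 mice farthest from the median of Cd68. In WT 25 of the 36 pairs had a positive r, the median was 0.355 (49.9% and -0.001 over all pairs of tested genes), and 4 passed the threshold for r, of which 2 also passed for rho. Those 2 were Lgals3 and Lyz2 (r = 0.863, rho = 0.903, adjusted permutation p = 0.0124 and 0.0104) and Cd68 and Lyz2 (r = 0.832, rho = 0.867, adjusted permutation p = 0.0162 and 0.0198). Without the 2 mice farthest from the median of the first gene these were 0.959 and 0.870. In WT Cd9 and Spp1 were related inversely (r = -0.739, rho = -0.697, adjusted permutation p = 0.0413 and 0.0832; r = -0.830 without 2 mice). The difference between the genotypes in these relations was not tested.

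**Figure D4:**
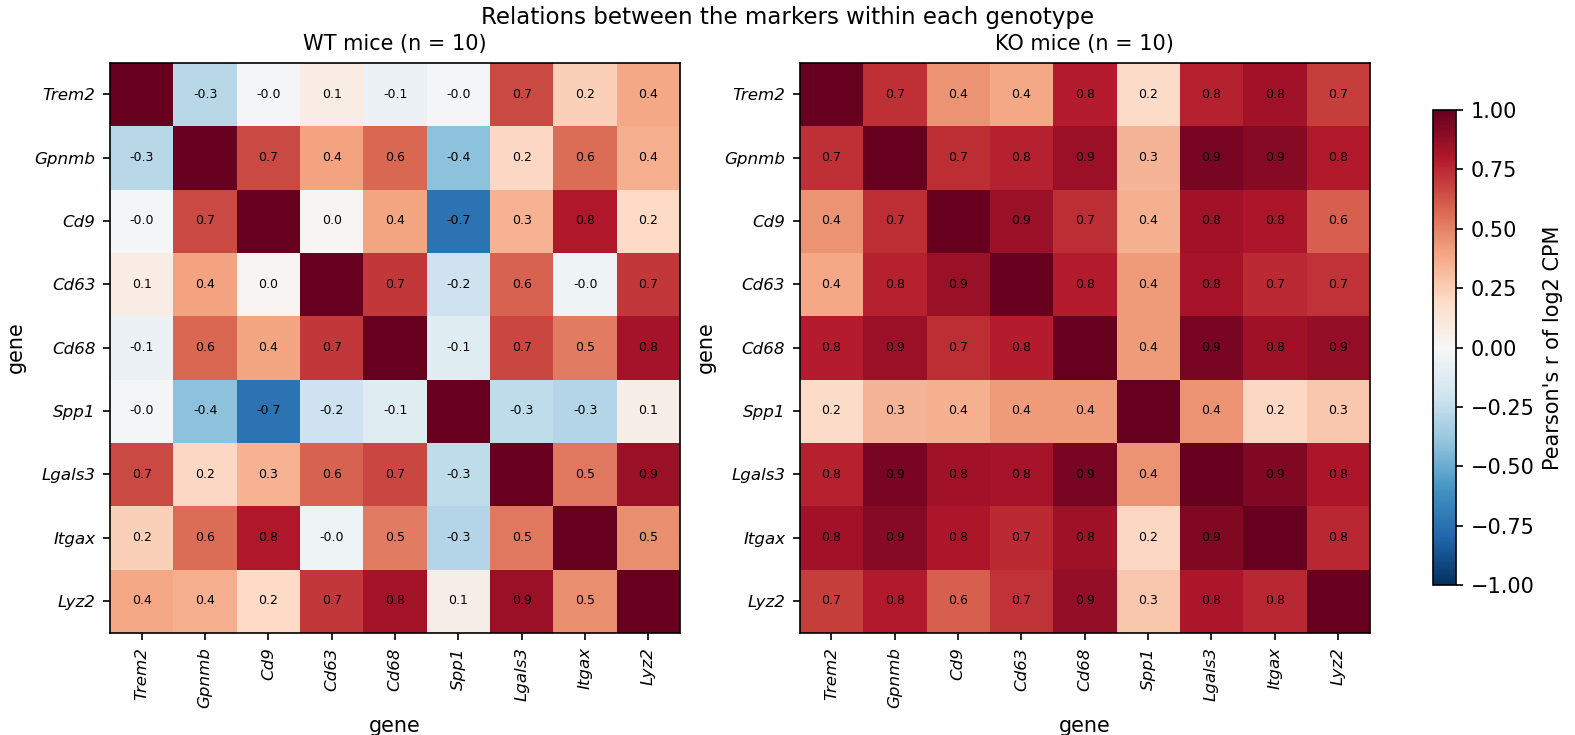
Pearson's r of log2 CPM for each pair of the 9 genes, within 10 WT mice (left) and within 10 KO mice (right), with red for positive and blue for negative values. In KO all pairs are positive with Spp1 the palest row, and in WT the pairs range from -0.739 to 0.863.

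The genes most like each of the 9 were sought among 10822 other genes by the Pearson's r of deviations from the genotype mean over all 20 mice, given here as a description. For Lyz2 the closest was Ctss, the cathepsin S protease of macrophages, with r of 0.923, followed by the leukocyte tetraspanin Cd53 at 0.894 and Il18bp at 0.889. For Cd68 they were Lgmn, a lysosomal protease, at 0.903, Lgals3 at 0.901 and Tmsb10, an actin-binding thymosin, at 0.898. Tmsb10 was also close to Lgals3 (0.884) and Gpnmb (0.846), and Csf2rb2, a cytokine receptor subunit, to Lgals3 (0.882). For Gpnmb the first 2 were Pck2, a mitochondrial enzyme that makes phosphoenolpyruvate, at 0.885 and the apolipoprotein Apoc2 at 0.860.

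Genes expressed well beyond macrophages were among those closest to Gpnmb, Itgax, Trem2 and Spp1, and also to the tetraspanins. For Cd9 they were the glutathione transferase Gsta1 (0.893), Tmem164 (0.893) and the peptide-loading chaperone Tapbp (0.890), and for Cd63 they were Arl6ip5 (0.882), the proton pump subunit Atp6v0e (0.856) and Arhgef2 (0.850). For Itgax they were Pdgfrb (0.902), Sept11 (0.888) and Coro1a (0.886). Trem2 had the weakest best match, Dhx38 at 0.740, ahead of the myeloid receptors Clec12a (0.736) and C3ar1 (0.729). For Spp1 they were Rnf113a2 (0.824), Eif4e3 (0.770) and Tpd52 (0.756). Of these genes, Dhx38 had no called difference between the genotypes (log2 fold change 0.049, adjusted p = 0.397).

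The rest of the lipid-associated programme moved mostly upward. Among 29 further genes tested 24 rose and 2 fell, with a median log2 fold change of 0.91. Over all tested genes 28.2% rose and 31.0% fell, or 68.4% and 6.71% with library size alone. The counts of this list and of each list below are to be read beside these shares. Cd36, a fatty acid and lipoprotein scavenger receptor, rose by 3.40 on the log2 scale (adjusted p = 4.57e-12), Ctsd, the lysosomal protease cathepsin D, by 1.37 (adjusted p = 1.74e-10), and Mmp12, the elastase of macrophages, by 5.09 (adjusted p = 1.02e-09). The 2 that fell were Apoe, a lipoprotein component made mainly by hepatocytes, with -0.18 (adjusted p = 0.0456), and Acp5, an acid phosphatase, with -0.20 (adjusted p = 0.00568), and both were higher in KO with library size alone (0.29 and 0.27). Without mouse KO_391 only 1 fell, and with library size alone 28 rose and none fell. Hepatocytes express several of these genes, Cd36 and Ctsd among them.

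In the signalling and shedding of TREM2, 8 of 13 tested members rose, 1 fell and 4 were not called (median 0.57). The adaptor gene Tyrobp rose by 0.98 (adjusted p = 9.92e-06), Adam10, a protease that sheds the receptor, by 0.63 (adjusted p = 2.69e-05), and Plcg2, a phospholipase downstream of it, by 1.18 (adjusted p = 6.88e-05). The fall was again that of Apoe, a TREM2 ligand, and it was not called without mouse KO_391. With library size alone all 13 rose, beside 68.4% of all tested genes. All 8 receptors of osteopontin rose (median 0.51), led by the integrin subunits Itgb5 (0.70, adjusted p = 1.08e-08), Itgav (0.44, adjusted p = 1.37e-05) and Itga9 (0.73, adjusted p = 4e-04).

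Relatives of the 9 genes were counted by family. Of 16 other tetraspanins tested 9 rose and 4 fell (median 0.31), and with library size alone 12 rose and 1 fell. Cd151 rose by 1.21 (adjusted p = 6.41e-11), while Tspan12 had -0.41 (adjusted p = 8.94e-08; 0.062 with library size alone) and Tspan33 -1.27 (adjusted p = 1.19e-05). Of 6 other galectins and galectin-binding genes tested, Lgals1 rose by 2.67 (adjusted p = 3.24e-08) and Lgals3bp by 0.73 (adjusted p = 2.12e-05), and the other 4 missed the threshold, with Lgals9 at -0.13 (adjusted p = 0.0776), while with library size alone all 6 rose, Lgals9 by 0.34. Of the partners and relatives of Itgax, the beta subunit gene Itgb2 rose by 1.11 (adjusted p = 5.8e-05), Itgal by 0.67 (adjusted p = 0.00235) and Itgam by 0.74 (adjusted p = 0.00957), and Itgae was not called. Of 12 lysosomal membrane genes and factors that drive them 2 rose and 4 fell (median 0.0036), beside 28.2% and 31.0% of all tested genes. With library size alone 10 rose, beside 68.4% of all tested genes, and the median was 0.47, beside 0.44 for all tested genes. Tfe3 and the proton pump subunit gene Atp6v1h rose by 0.61 and 0.50 (adjusted p = 4.98e-09 and 3.44e-05), and Lamp2 had -0.46 (adjusted p = 1.98e-06; 0.0089 with library size alone).

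Markers of macrophages as such were also higher in KO. Of the 18 pan-macrophage genes 15 rose and 1 fell, with a median of 0.97. The complement gene C1qb rose by 1.13 (adjusted p = 2.61e-07), Sirpa by 1.23 (adjusted p = 1.13e-06) and Cybb, the oxidase subunit of phagocytes, by 1.18 (adjusted p = 6.73e-06). The summed level of the list overlapped between genotypes, from 333 to 543 CPM in KO and from 289 to 517 CPM in WT.

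Kupffer cell markers were mixed: 6 of 13 rose and 2 fell (median 0.37). Cd5l, a scavenger protein, and Cd207 rose by 1.08 each (adjusted p = 9e-06 and 9.88e-06), and Nr1h3, the gene of the oxysterol receptor LXR-alpha, which hepatocytes express too, had -0.45 (adjusted p = 5.73e-07; 0.023 with library size alone). Their summed level was 642 to 962 CPM in KO and 684 to 953 CPM in WT. The complement gene C6, which hepatocytes express too, held the most of that sum, at 298 ± 90.3 CPM over the KO mice and 380 ± 86.6 CPM over the WT mice (SD, 10 mice each, adjusted p = 0.0669), so the sum says little of the less abundant members that rose, such as Cd5l and Cd207. Of the 8 tested monocyte genes 4 rose, led by Cx3cr1 at 1.74 (adjusted p = 1.75e-05), with Itgal at 0.67 and Plac8 at 0.59 (adjusted p = 0.00235 and 0.00313). The summed level of the monocyte genes was 20.3 to 46.6 CPM in KO and 12.5 to 44.7 CPM in WT.

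Other cell types in which some of the 9 genes are also expressed were read in the same way. Of 8 dendritic cell genes tested H2-Ab1 and Flt3 rose by 0.90 and 0.95 (adjusted p = 0.0201 and 0.0226), and the list summed to 33.5 to 96.7 CPM in KO and 20.4 to 74.6 CPM in WT. Of 7 bile duct (cholangiocyte) genes tested 2 rose and 2 fell, near the 28.2% and 31.0% of all tested genes. Epcam and Prom1 were at 0.94 and 1.18 (adjusted p = 9.95e-04 and 0.0137), and Sox9, a transcription factor of bile duct cells, was at -0.78 (adjusted p = 0.0119), though with library size alone no gene of the list fell. Their summed level was 23.7 to 38.4 CPM in KO and 26.6 to 41.8 CPM in WT, while that of Spp1 alone reached 184 CPM. Cldn4, a tight junction gene of the same list, did not pass the filter on low counts and was not tested. It ranged from 0.199 to 15.8 CPM in KO (median 2.47 CPM) and from 0 to 0.253 CPM in WT (median 0.0468 CPM), with 5 to 338 fragments per KO library and 0 to 4 per WT library. Its highest value was in KO_434, which also had the highest Spp1, but KO_435, the second in Spp1, had only 1.48 CPM of Cldn4. Krt7 and Krt19, the defining keratins of these cells, had -0.038 and 0.47 (adjusted p = 0.920 and 0.191), and 0.41 and 0.95 with library size alone.

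Of 12 stellate cell genes 9 rose (median 0.77), led by Lum, Dcn and Col1a1 at 1.26, 0.56 and 1.41 (adjusted p = 1.11e-06, 7.61e-05 and 9.19e-05), and the list summed to 297 to 550 CPM in KO and 163 to 322 CPM in WT. Of 10 endothelial genes 4 rose (median 0.24), beside 28.2% of all tested genes, and all 10 rose with library size alone, beside 68.4%. Cdh5, Fcgr2b and Pecam1 were at 0.69, 0.45 and 0.36 (adjusted p = 5.7e-04, 0.00133 and 0.0122). Neutrophil genes were near the limit of detection. Their summed level was 3.82 to 12.7 CPM in KO and 1.35 to 8.68 CPM in WT, only 3 of 10 passed the filter and none of the 3 was called, and Ly6g had no fragment in any WT mouse. Lymphocyte genes had a summed level of 2.66 to 17.9 CPM in KO and 3.22 to 16.9 CPM in WT, and of the 3 tested Cd4 fell by 1.42 (adjusted p = 4.43e-06). Of 2 tested platelet genes Itga2b rose by 0.42 (adjusted p = 0.0463).

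Hepatocyte genes were lower: 9 of 10 fell (median -0.74) and 6 of 10 fell with library size alone, led by Ahsg, Serpina1a and Ttr at -1.13, -1.56 and -1.22 (adjusted p = 7.51e-10, 2.49e-09 and 1.24e-08). Their summed level was 52160 to 67990 CPM in KO and 85880 to 122800 CPM in WT. The part of each of these cell types in the rise of the 9 genes was not tested.

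**Figure D5:**
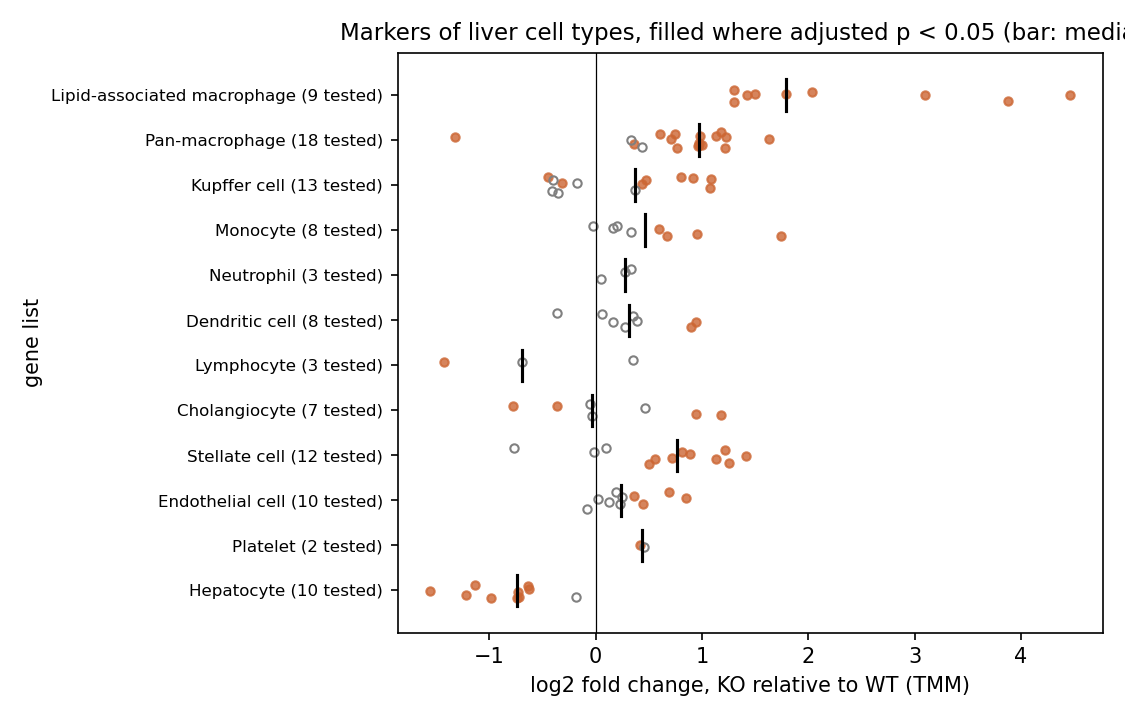
Difference between KO and WT as log2 fold change with TMM scaling, for the 9 genes and for each tested gene of 11 cell type marker lists, filled where the adjusted p was under 0.05 and open otherwise, with a bar at the median of the list. The median was 1.79 for the lipid-associated macrophage markers, 0.97 for the pan-macrophage genes, 0.37 for Kupffer cell genes and -0.74 for hepatocyte genes.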

How the data were processed

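RNA from 20 livers, 10 per genotype, was compared by the genotype in the labels, which name no litter, batch or date. Alignment and counting used Rsubread with RefSeq genes of mm10, per the file names, whereas HISAT2 2.0.5 and DESeq2 are named in the submitters' processing notes. The deposited counts are whole fragments per Entrez gene. The authors also deposited a normalized signal (each count divided by 1 factor per mouse), RPKM values (that signal per kilobase) and a ROTS table with log2 fold changes, p-values and FDR. Neither the strand setting nor the settings of that test are given in the sources used here.

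Counts were tested with edgeR 4.0.16 (R 4.3.3): filterByExpr (minimum count 10), TMM factors, robust quasi-likelihood F test, Benjamini-Hochberg adjustment over 13670 genes, threshold 0.05. Genes left out held 0.0858% of fragments. Log2 CPM has a prior count of 2, and each SE belongs to the fitted log2 fold change. No 2 libraries were alike within sampling noise (chi-square per degree of freedom of 13.2 or more in all 90 pairs within a genotype). The labels name separate mice. In counts simulated for this comparison over 13670 genes, 50 genes were changed at each fold size. The test called 35 of those changed 1.5-fold, 43 of those changed 2-fold, 50 of those changed 4-fold and 50 of those changed 8-fold. Of its 190 calls 12 were of unchanged genes. The simulation changed far fewer genes than were called here and gave the genotypes no difference in RNA composition. Its share of false calls thus need not hold for these data.

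The 9 genes and all lists were chosen with earlier results of these data known. The permutation p-values of the ratios to macrophage genes do not account for that choice. They are also given unadjusted, in place of the planned adjustment over the 9 genes. With that adjustment Trem2 and Cd9 against Adgre1, and Itgax against the list without KO_414 or without WT_427, would miss the threshold. Limma on the ratios of all tested genes, and r over all pairs of them, gave the background and were added after seeing the data. Genes named beside the 9 are the up to 3 with the smallest adjusted p in each list, and the 3 most alike in deviations from the genotype mean. Others (Apoe, Acp5, Adgre1, Prom1, Itgae, Ly6g, Cldn4, C6, Lyz1 and the keratins) were chosen after their values were seen. Values of 2 list genes are not reported here. Coordinates of genes follow the deposited annotation, and promoter sequences are from RefSeq (GRCm38.p6), in which all 9 genes matched. Alternatives were other scaling factors and filters, DESeq2 1.42.0, limma 3.58.1 (voom with quality weights, and log2 RPKM with pseudocounts of 0.1 and 1), other reference genes and leaving out mice.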

Additional observations from a re-analysis of the deposited data

How the results depend on the processing

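All 9 genes stayed higher in KO and past the threshold in every alternative fit, including other scalings, filters, DESeq2, limma and leaving out each mouse (279 refitted values, largest adjusted p = 0.00594). Sizes moved more: in limma on log2 RPKM with a pseudocount of 1 the log2 fold change was 1.29 for Gpnmb, 0.54 for Itgax and 1.18 for Trem2, against 4.47, 1.495 and 2.04, and with a pseudocount of 0.1 it was 3.10, 1.32 and 1.88. Leaving out 1 mouse moved that of Itgax between 1.35 and 1.77. Library size alone gave 9355 genes higher and 917 lower over all genes, so the share of calls that were higher rose with it. Under it the list counts that moved by more than 1.5-fold, or to or from 0, were as follows. Among other lipid-associated macrophage genes 0 fell, in TREM2 signalling 13 rose and 0 fell, and 1 of the other tetraspanins fell. Then 6 galectin genes rose, 10 lysosomal membrane genes rose and 0 fell, and 0 Kupffer cell and 0 cholangiocyte genes fell. Last, 1 neutrophil, 6 dendritic cell, 10 endothelial and 2 platelet genes rose. Smaller moves, such as hepatocyte genes that fell (9 to 6), are left out here and for the fit without KO_391. Without mouse KO_391, an alternative chosen after seeing the data like the pairs of mice left out for Spp1 and Itgax, 1 other lipid-associated macrophage gene and 0 TREM2 signalling genes fell. Relative to pan-macrophage genes, the difference of Itgax ran from 0.68 to 0.91 and that of Spp1 from 0.29 to 0.53 over the mice left out, with no call changed. With the Kupffer cell list as reference Spp1 passed the threshold (0.96, permutation p = 0.00343). With Adgre1 alone Cd68 (0.081), Itgax (0.29) and Lyz2 (0.055) lost it and Spp1 was at -0.074, and the cause was not tested. A prior count of 0.5, or limma over all genes (added after seeing the data), changed no call of these ratios. No paired analysis was possible because KO and WT mice share no number, litter or batch in the labels. Depth limits the WT levels of Gpnmb (1 to 15 fragments) and Trem2 (3 to 28).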
